A study of Homo sapiens with 6 samples.

Results

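The translation initiation and elongation factors described here are the human genes with eIF and eEF symbols, together with the binding proteins that hold eIF4E. They were taken by gene symbol alone, with no measured value used. The symbol pattern matched 73 of the 38167 genes in the count table. Without the 4 eIF2 kinases, EEF1E1 and 3 pseudogenes, 65 genes remained, and no antisense transcript was among them. They were compared in Cal27, an established line from a human squamous cell carcinoma of the tongue, grown as spheroids in Matrigel, a gel of basement membrane proteins. Soft gels held 3 mg/mL and stiff gels 12 mg/mL of Matrigel, both harvested on day 14, with 3 polyadenylated RNA libraries per condition. The question the design addresses is how the stiffness of the surrounding matrix changes the cells' transcripts, but a denser Matrigel is both stiffer and richer in matrix protein, and these cannot be told apart. The replicates are called biological, and the labels do not say whether they were separate cultures; a p-value here is relative to the scatter of these libraries, which may be technical.

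Initiation starts when eIF2 carries the initiator tRNA to the small ribosomal subunit with eIF1, eIF1A, eIF3 and eIF5, while eIF4E binds the messenger's cap, eIF4G joins it to the ribosome and the helicase eIF4A unwinds the leader. eEF1A then brings each aminoacyl-tRNA, eEF1B recharges eEF1A with GTP, and eEF2 moves the ribosome along. Growth and stress signals act on this machinery through mTORC1, which frees eIF4E from the 4E-BPs, and through kinases that phosphorylate eIF2; many messengers of the machinery itself begin with a C and a run of pyrimidines, the terminal oligopyrimidine tract, which mTORC1 and LARP1 act on.

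The transcript starts are shown first, because they carry that feature and because members with it fell into different groups in the comparison. Sequences and positions are from RefSeq on GRCh38.p14, which gave a start for 50 of the 63 tested members. Each window holds 10 bases before the start and the first 20 bases of the transcript, on the strand of the gene. The capitals mark an unbroken run of pyrimidines that opens with a C at the start, where at least 4 pyrimidines follow that C. The windows are those of EIF4A2 (chr3:186783567-186783596, plus strand), EIF4B (chr12:53006446-53006475, plus), EIF2S3 (chrX:24054946-24054975, plus), EIF3D (chr22:36529147-36529176, minus), EIF3F (chr11:7987327-7987356, plus) and EIF2A (chr3:150546777-150546806, plus), which were higher in stiff gels. EEF1A1 (chr6:73521013-73521042, minus) and EEF2 (chr19:3985444-3985473, minus) did not pass the test. The 4 windows in which no such run opens exactly at the start are from EIF4A1 (chr17:7572815-7572844, plus), EIF5 (chr14:103334227-103334256, plus) and EIF3J (chr15:44537137-44537166, plus), which were lower in stiff gels, and from EIF5A2 (chr3:170908618-170908647, minus), the member with the largest rise.
EIF4A2: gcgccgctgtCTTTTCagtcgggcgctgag
EIF4B: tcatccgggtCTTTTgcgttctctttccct
EIF2S3: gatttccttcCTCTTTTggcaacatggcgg
EIF3D: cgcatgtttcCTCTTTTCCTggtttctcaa
EIF3F: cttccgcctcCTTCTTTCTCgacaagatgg
EIF2A: cgagcggtttCTCTTTCCgggacaacatgg
EEF1A1: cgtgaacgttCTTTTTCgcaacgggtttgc
EEF2: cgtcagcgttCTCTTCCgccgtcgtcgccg
EIF4A1: ggcactccgccctagtttctaaggatcatg
EIF5: ggcgttgttcagtcagagcgagaacattcc
EIF3J: ccgccgtgctaactcctcgctagctctccc
EIF5A2: cccgtctcttggaactgccgcggccgccac

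A start with C followed by at least 4 pyrimidines, read on the strand of the gene, was present in 12 of the 50 members with a start (24.0%), in 4.04% of 27305 starts in the whole table and in 5.04% of the 13261 starts of tested genes. Among these 50 members it was present in 6 of 14 that were higher in stiff gels, in 0 of 11 that were lower and in 6 of 25 that were not called. The 6 uncalled members with it were EEF1A1, EEF2, EIF2S3B, EIF3K, EIF3M and EIF2D. With the run allowed to open within 5 bases of the start, the shares were 40.0% of the members and 22.2% of the tested genes, and 9 of 14 higher and 3 of 11 lower members had it. In the 300 bases from 250 before to 50 after the start, searched on both strands, the E-box letters CACGTG were in 13 of 50 members (26.0%) and in 9.60% of tested genes, whereas TGATGNAA was in 0 of 50 and in 2.03%. TATAAA was in 3 of 50 members (6.0%) and in 6.82% of tested genes. Each of these strings contains purines and so cannot lie inside a pyrimidine run. The letters describe the sequences and do not show that a factor acted there.

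The libraries held 30656278 to 40583044 counted fragments, and test results are given for 63 of the 65 members. EIF4E1B, an eIF4E copy, had 0 counts in all 6 libraries (a count of 0 allows up to 3 counts in each) and did not pass the filter on low counts. EIF1AY is counted as a member with no level or test result given because it is Y-linked. All 8 squamous markers were detected, with a summed TPM (abundance per transcript length on a common total) of 12043.0 to 13251.7 in soft and 37214.3 to 39822.7 in stiff gels. That sum was mostly the keratins KRT5, KRT14, KRT6A and KRT17, which were higher in stiff gels, as was TP63. CDH1 (71.9 ± 5.99 and 49.1 ± 7.75) and EPCAM (373 ± 3.90 and 273 ± 18.2) were lower, and DSG3 overlapped (112 ± 10.3 and 121 ± 19.9). The 6 fibroblast markers summed to 16.8 to 20.5 TPM in soft and 39.6 to 44.2 in stiff gels. The sum was mostly COL1A1 in soft gels and mostly LUM in stiff gels (LUM 3.70 ± 1.61 and 25.6 ± 1.03). COL1A1 (13.8 ± 1.28 and 14.7 ± 1.42) and COL1A2 (1.47 ± 0.208 and 1.33 ± 0.252) overlapped between groups in TPM, and COL3A1, DCN and PDGFRB were at or below 1. On counts COL1A1 was called higher (log2 fold change 0.20, edgeR adjusted p = 0.0432), a call kept in 10 of 20 alternatives. The 5 endothelial markers summed to 0.6 to 0.9 and 1.1 to 1.8 TPM, with all but VWF at or below 1. Of leukocyte markers, PTPRC was listed at 0 in all libraries and LYZ was at or below 1, CD3E overlapped (1.77 ± 0.764 and 1.5 ± 0.458), CD68 was higher in stiff gels (71.5 ± 2.12 and 119.6 ± 8.30) and CD14 lower (36.1 ± 1.01 and 23.7 ± 2.70). Their part in the members' differences was not tested. Stiff replicate 2 stood apart from the other stiff libraries: it was the highest of the 3 for 42 and the lowest for 16 of the 63 members, and its median distance from the other stiff libraries was 0.18 on the log2 scale, where stiff replicates 1 and 3 differed by 0.03. In bulk RNA, fewer cells of a kind and less RNA per cell cannot be told apart.

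In stiff gels factors rose and fell side by side within eIF2, eIF3, the eIF4A group, eIF5A and the methyltransferases, and few differed by much. EIF5A2, EIF1B and EIF4A2 rose the most, each of them a paralog of a gene that fell or rose less, and EEF1AKMT4, EEF2KMT and EIF3C with its copy EIF3CL fell the most. By edgeR's quasi-likelihood test with Benjamini-Hochberg adjustment over all genes and a threshold of 0.05, 17 members were higher in stiff gels (27.0%), 15 were lower (23.8%) and 31 were not called. Among all 18676 tested genes 25.3% were higher, 23.8% lower and 49.1% called in either direction, so the members' share of 50.8% lay near that of all genes. No overlap between the 3 soft and 3 stiff CPM values was seen for 39 of 63 members (61.9%) and for 59.9% of all genes. A called difference of at least 1.5-fold was found in 7 of 63 members (11.1%) and in 25.7% of all genes. The median size of the log2 fold change was 0.23 in the members and 0.35 in all genes, and 43 members lay below the latter. The median signed log2 fold change was 0.00 for both. Of the 32 called members, 19 (9 higher and 10 lower) kept their call under every one of the 20 alternative analyses that fitted them, and 0 changed direction. Beyond the cases named below, another gene shares at least 10% of the exon bases of EIF2B1, EIF2B2, EIF2B3, EIF3M, EIF4B, EIF4E2, EIF5B, EIF6, EEF1AKMT2 and EEF1AKMT3, which makes their counts less certain.

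**Figure D1:**
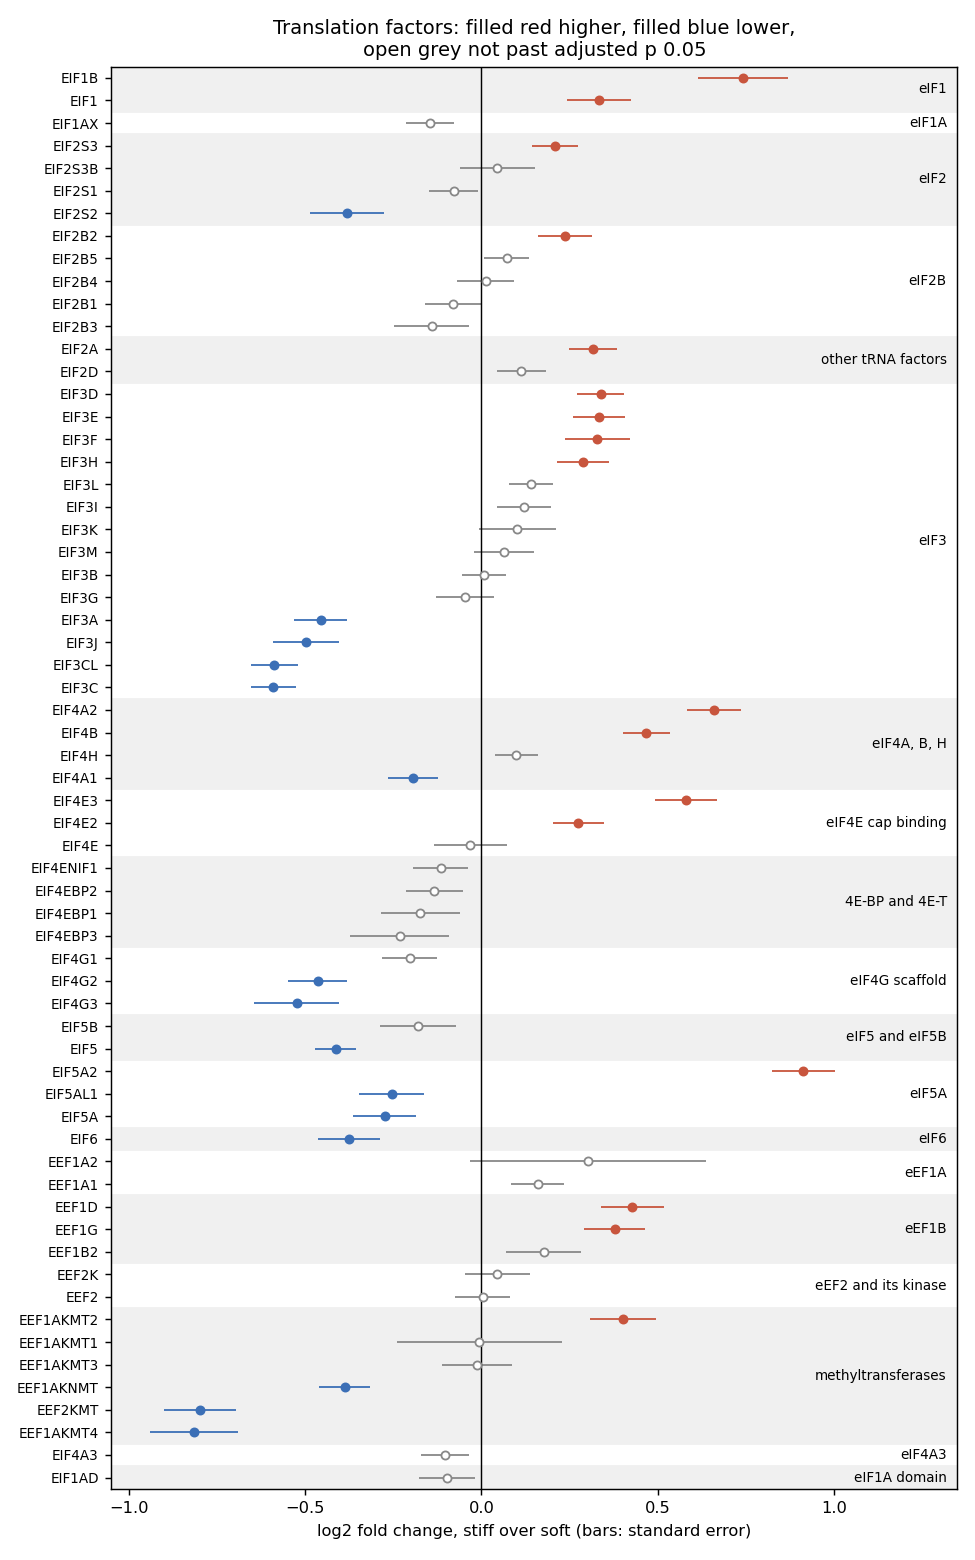
Log2 fold change of stiff over soft gels for 63 translation factors, grouped by complex, with bars of 1 standard error; filled red points were higher, filled blue points lower and open grey points not called at an adjusted p of 0.05. Both colours appear within eIF2, eIF3, eIF4A with its cofactors, eIF5A and the methyltransferases, and no point lies beyond 0.91.

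Both genes of eIF1, which guards the choice of the start codon, rose. EIF1, which keeps the ribosome in its open, scanning state, read 462, 521 and 504 CPM (counts divided by the library's TMM-scaled total) in soft replicates 1 to 3 and 577, 709.9 and 588 in stiff replicates 1 to 3. The groups did not overlap, stiff replicate 2 was the highest of all, and the log2 fold change was 0.33 ± 0.09 (SE, edgeR adjusted p = 0.0119, 0.0616 without soft replicate 1). EIF1B, its close copy, read 17.2, 18.5 and 17.4 CPM in soft and 27.7, 36.0 and 24.9 in stiff gels, again with stiff replicate 2 on top and no overlap. Its log2 fold change was 0.74 ± 0.13 (1.67-fold, edgeR adjusted p = 9.56e-04), and 0.57 without stiff replicate 2. EIF1AX, which works beside eIF1 on the small subunit, read 58.4, 59.6 and 60.4 CPM in soft and 52.4, 56.6 and 52.3 in stiff gels; the groups did not overlap, but the log2 fold change of -0.14 was not called (edgeR adjusted p = 0.104).

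The subunits of eIF2, which binds the initiator tRNA, did not move together. EIF2S3, the gamma subunit that holds GTP and the tRNA, read 206, 213 and 209 CPM in soft and 243, 253 and 229.5 in stiff gels, with all stiff values above all soft ones. Its log2 fold change was 0.21 ± 0.06 (edgeR adjusted p = 0.0225), and the call was lost in 8 of 20 alternatives, with adjusted p up to 0.150. EIF2S2, the beta subunit, read 211, 230.2 and 206 CPM in soft and 150.2, 196 and 151 in stiff gels, where stiff replicate 2 lay just under the soft range. Its log2 fold change was -0.38 ± 0.10 (edgeR adjusted p = 0.0124, 0.0554 without soft replicate 2). EIF2S1, the alpha subunit that stress kinases phosphorylate, was not called, with a log2 fold change of -0.08. EIF2S3B, a near-identical copy that had 16.5% to 24.7% of the count of EIF2S3, was at 0.04 and not called, and reads of the pair may be split between them.

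Of the 5 subunits of eIF2B, the exchange factor that reloads eIF2 with GTP, 1 was called. EIF2B2, the beta subunit, read 26.1, 25.9 and 23.9 CPM in soft and 29.1, 30.9 and 29.6 in stiff gels, without overlap. The log2 fold change was 0.24 ± 0.08 (edgeR adjusted p = 0.0262), with adjusted p up to 0.207 over the alternatives. EIF2B1, the alpha subunit, read 52.3, 57.9 and 50.4 CPM in soft and 47.6, 53.1 and 51.1 in stiff gels, and the groups overlapped. EIF2B3, EIF2B4 and EIF2B5 had log2 fold changes of -0.14, 0.01 and 0.07 and were not called. Outside eIF2, EIF2A, which can bring initiator tRNA on its own, read 166, 178 and 187 CPM in soft and 219, 215 and 226 in stiff gels. All stiff values exceeded the soft ones, with a log2 fold change of 0.32 ± 0.07 (edgeR adjusted p = 0.00354), a call lost on log2 TPM at adjusted p up to 0.0973. EIF2D, a factor of re-initiation and recycling, was at 0.11 and not called.

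eIF3, the largest initiation factor and the platform that ties the other factors to the small subunit, had subunits that fell and subunits that rose. Of its 14 genes, 4 rose (28.6%), 4 fell (28.6%) and 6 were not called, near the 25.3% and 23.8% of all genes, and 3 fell with EIF3C and EIF3CL summed. EIF3C, a core subunit, read 369, 378 and 359 CPM in soft and 249, 232 and 254 in stiff gels. The gap between the groups was several times the spread within either, and the log2 fold change was -0.59 ± 0.06 (1.51-fold lower, edgeR adjusted p = 5.71e-05). EIF3CL read 354, 373 and 343 CPM in soft and 240.0, 226 and 245 in stiff gels (log2 fold change -0.59 ± 0.07, 1.5-fold lower, edgeR adjusted p = 6.65e-05). It had 95.5% to 98.6% of the count of EIF3C in each library, so the 2 rows may hold the same reads and are best taken as 1 measurement of the pair.

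EIF3A, the largest core subunit, fell from 429 ± 25.2 to 313 ± 21.9 CPM (mean ± SD, n = 3), a log2 fold change of -0.46 ± 0.08 (edgeR adjusted p = 7.75e-04). EIF3J, a loosely held subunit that sits near the messenger's entry channel, fell from 114 ± 4.78 to 81.0 ± 10.7 CPM, a log2 fold change of -0.50 ± 0.09 (edgeR adjusted p = 0.00160). Among the subunits that rose, EIF3D, which can bind the cap of some messengers, read 178, 192 and 190.3 CPM in soft and 227, 245 and 235 in stiff gels. The groups did not overlap, and the log2 fold change was 0.34 ± 0.07 (edgeR adjusted p = 0.00204). EIF3E, a PCI-domain subunit, and EIF3F and EIF3H, the MPN-domain subunits, rose by similar amounts, with log2 fold changes of 0.33, 0.33 and 0.29. The calls of EIF3F and EIF3H were lost without soft replicate 1, at edgeR adjusted p of 0.0736 and 0.0535.

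EIF3G, an RNA-binding subunit, read 122, 133 and 124 CPM in soft and 114, 137 and 116 in stiff gels, where stiff replicate 2 was the highest of all 6 and the other stiff libraries the lowest. EIF3B, EIF3I, EIF3K, EIF3L and EIF3M were not called either, with log2 fold changes between 0.01 and 0.14. EIF3L shares 41.1% of its exon bases with another annotated gene, whose count is not analysed here, so its value is uncertain. Levels per length were taken as CPM per kilobase of the longest coding transcript in GENCODE release 29. The row of EIF3C went from the level of EIF3G (117 and 115 in soft gels) to below it (77.9 and 111 in stiff gels). EIF3CL stood at 116 and 76.9. If reads of the pair were split between the 2 rows, its level is higher than either, so its order against EIF3G is uncertain. EIF3E went from 149.6 to 188.

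**Figure D2:**
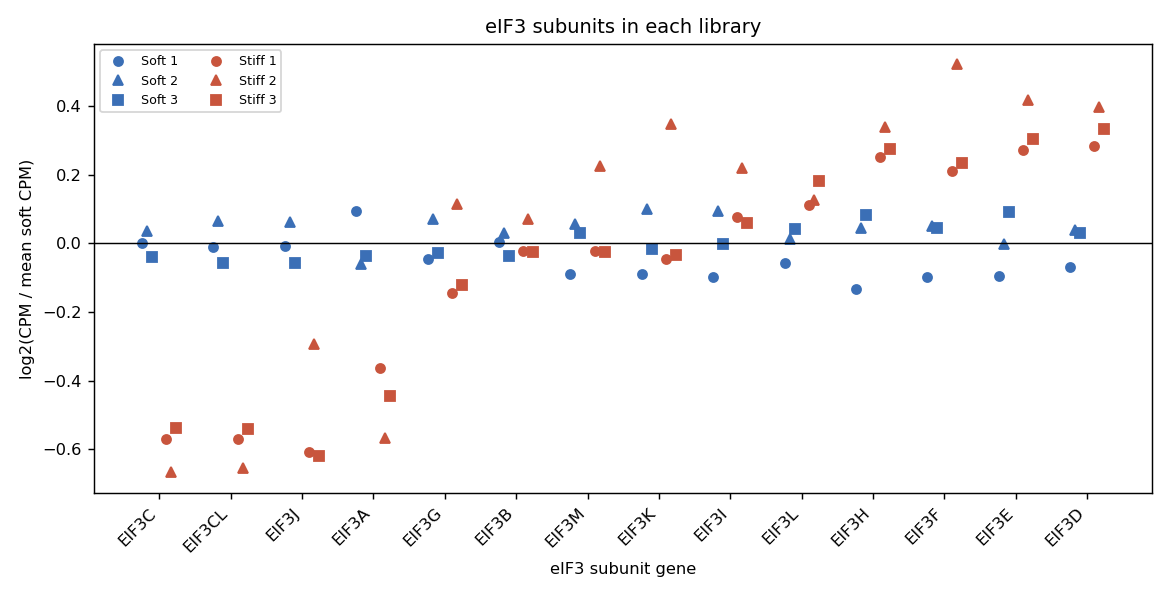
Log2 ratio of each library's CPM to the mean of the soft libraries for the 14 eIF3 genes, ordered by fold change, with soft libraries in blue and stiff libraries in red (circle, triangle and square for replicates 1, 2 and 3). EIF3C, EIF3CL, EIF3J and EIF3A lie below all soft values, EIF3H, EIF3F, EIF3E and EIF3D above them, and the triangle of stiff replicate 2 stands apart for EIF3J, EIF3K and EIF3F.

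The 2 genes of eIF4A, the helicase that unwinds the messenger's leader, went in opposite directions. EIF4A2 read 556, 575 and 615 CPM in soft and 891, 997 and 870.5 in stiff gels, so the lowest stiff value was well above the highest soft one. The log2 fold change was 0.66 ± 0.08 (1.58-fold, edgeR adjusted p = 7.11e-05), and it was called under all 20 alternatives. EIF4A1, its paralog, went the other way, from 467, 484 and 475 CPM in soft to 389.6, 449.6 and 408 in stiff gels, also without overlap. The change was small, with a log2 fold change of -0.19 ± 0.07 (edgeR adjusted p = 0.0444), and the call was lost with upper quartile scaling and when any library other than stiff replicate 2 was left out, at adjusted p up to 0.171. The readthrough gene SENP3-EIF4A1, which shares 29.8% of the exon bases of EIF4A1, had 109.8% of its count, so reads of the 2 cannot be told apart.

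EIF4B, which stimulates the helicase, rose with EIF4A2. It read 329.6, 339.9 and 360.4 CPM in soft and 474, 497 and 454 in stiff gels, with no overlap and a log2 fold change of 0.47 ± 0.07 (edgeR adjusted p = 3.28e-04). EIF4H, a smaller helper of the helicase, was at 0.10 and not called, although its stiff values (305 to 313 CPM) lay above its soft ones (277 to 297). PDCD4, a tumour suppressor protein that binds and blocks eIF4A, was at 78.7 ± 2.50 CPM in soft and 76.2 ± 6.75 in stiff gels (log2 fold change -0.05, not called).

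**Figure D3:**
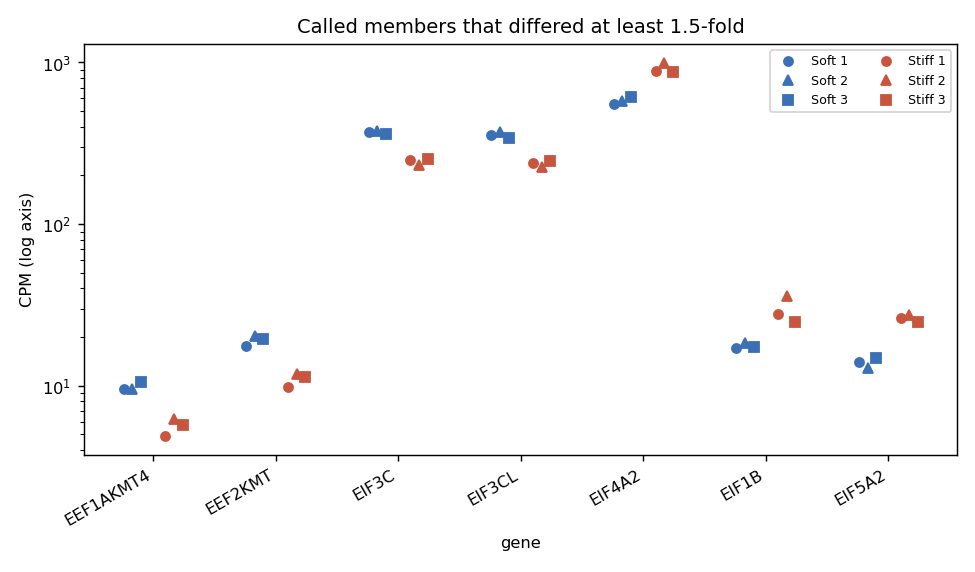
CPM on a log axis of the 7 called members that differed at least 1.5-fold, with soft libraries in blue and stiff libraries in red and replicates 1, 2 and 3 as circle, triangle and square. For each of the 7 genes the 3 soft and 3 stiff points do not overlap, and stiff replicate 2 is the highest of its group for EEF1AKMT4, EEF2KMT, EIF4A2, EIF1B and EIF5A2.

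Among the cap-binding proteins, the alternative members rose and EIF4E itself was not called. EIF4E, the main cap-binding protein, was at 15.7 ± 0.350 CPM in soft and 15.4 ± 1.89 in stiff gels, a log2 fold change of -0.03 ± 0.10 (edgeR adjusted p = 0.818). EIF4E2, a cap-binding protein known for repressing messengers and for translation in low oxygen, read 65.3, 64.9 and 64.4 CPM in soft and 74.9, 84.8 and 75.8 in stiff gels. All stiff values were higher, with a log2 fold change of 0.28 ± 0.07 (edgeR adjusted p = 0.00973); on log2(TPM + 1) it was 0.15, and the call was lost on log2 TPM at adjusted p up to 0.0725. EIF4E3, an atypical family member, read 31.2, 28.5 and 35.6 CPM in soft and 47.0, 48.2 and 47.4 in stiff gels. Its stiff values were tight and well above the soft ones, with a log2 fold change of 0.58 ± 0.09 (just under 1.5-fold, edgeR adjusted p = 4.58e-04).

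The proteins that hold eIF4E showed no called change. EIF4EBP1, the main 4E-BP, read 86.3, 88.9 and 81.8 CPM in soft and 68.5, 91.9 and 67.5 in stiff gels, so stiff replicates 1 and 3 were the lowest of all and stiff replicate 2 the highest. Its log2 fold change was -0.17 ± 0.11 (edgeR adjusted p = 0.230), and without stiff replicate 2 it was -0.33 and called. EIF4EBP3 likewise had stiff replicates 1 and 3 lowest and stiff replicate 2 highest, at -0.23 with all libraries and -0.41, called, without stiff replicate 2; the readthrough gene ANKHD1-EIF4EBP3, which covers 73.4% of its exon bases, had 1902.5% of its count. EIF4EBP2 and EIF4ENIF1, the eIF4E transporter, were at -0.13 and -0.12 and not called with or without that library.

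The scaffold proteins of the eIF4G family, which join the cap to the ribosome, all had lower means in stiff gels. EIF4G2, a shortened relative that lacks the eIF4E-binding part and serves cap-independent initiation, read 999, 959.7 and 969 CPM in soft and 757, 616 and 749 in stiff gels, with stiff replicate 2 the lowest. Its log2 fold change was -0.47 ± 0.08 (edgeR adjusted p = 0.00140), and -0.37 without that library. EIF4G3 fell from 150.2 ± 11.5 to 104 ± 18.6 CPM (log2 fold change -0.52 ± 0.12, edgeR adjusted p = 0.00503), a call lost on log2 TPM at adjusted p up to 0.0822. EIF4G1, the main scaffold, read 618, 573 and 558 CPM in soft and 537, 459.7 and 520.3 in stiff gels. The groups did not overlap, and the log2 fold change of -0.20 ± 0.08 just missed the threshold (edgeR adjusted p = 0.0521) and passed it in 8 of 20 alternatives, with adjusted p from 0.0178 to 0.182.

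The factors of start-codon commitment and subunit joining were lower or not called. EIF5, which makes eIF2 hydrolyse its GTP at the start codon, read 329, 325 and 332 CPM in soft and 246, 244 and 249.7 in stiff gels. Here stiff replicate 2 lay with its group, and the log2 fold change was -0.41 ± 0.06 (edgeR adjusted p = 3.02e-04). EIF5B, which joins the large subunit, read 222, 219.9 and 193 CPM in soft and 170.3, 221 and 169.8 in stiff gels. Only stiff replicate 2 among the stiff libraries reached the soft range; the gene was not called with it (log2 fold change -0.18) and was lower without it (-0.32). EIF6, which keeps free large subunits from joining too early, read 162, 176 and 157 CPM in soft and 115, 142 and 125 in stiff gels, without overlap, at a log2 fold change of -0.38 ± 0.09 (edgeR adjusted p = 0.00524).

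In the eIF5A family, whose hypusine-bearing protein helps ribosomes past difficult stretches and in termination, the minor gene rose and the main gene fell. EIF5A2, known as a gene amplified in some cancers, read 14.1, 12.8 and 14.9 CPM in soft and 26.4, 27.4 and 24.8 in stiff gels. The groups were far apart for their spread, and the log2 fold change of 0.91 ± 0.09 (1.88-fold, edgeR adjusted p = 2.53e-05) was the largest among the 63 members, called under all 20 alternatives and 0.88 without stiff replicate 2. EIF5A read 319.5, 354 and 310.3 CPM in soft and 253, 305 and 256 in stiff gels, where stiff replicate 2 lay just under the soft range. Its log2 fold change was -0.28 ± 0.09 (edgeR adjusted p = 0.0263), a call lost when any of 4 libraries was left out, at adjusted p up to 0.113. EIF5AL1, a near-identical copy with 22.2% to 23.8% of the count of EIF5A, read 75.7, 78.5 and 72.3 CPM in soft and 58.0, 72.4 and 59.4 in stiff gels (log2 fold change -0.25 ± 0.09, edgeR adjusted p = 0.0419); its groups overlapped, the call was kept in 13 of 19 alternatives, with adjusted p up to 0.142, and it may hold reads of EIF5A.

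The elongation factors that carry the load were the most abundant members and were not called. EEF2, the translocase, read 2075, 2153 and 2265 CPM in soft and 2284, 1961 and 2269 in stiff gels, and the groups overlapped, with a log2 fold change of 0.00 ± 0.08 (edgeR adjusted p = 0.967). EEF1A1, which delivers aminoacyl-tRNA, read 2065, 2267 and 2266 CPM in soft and 2374, 2663 and 2330.0 in stiff gels; the groups did not overlap, and the log2 fold change was 0.16 ± 0.08 (edgeR adjusted p = 0.109). Per length they stood at 684 and 495 CPM per kilobase in soft and 686 and 553 in stiff gels, above every other member. EEF1A2, the muscle and nerve form, stayed near the floor at 0.707 ± 0.156 CPM in soft and 0.864 ± 0.320 in stiff gels. EEF2K, the kinase that stops eEF2, was at 0.04 and not called.

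Of the 3 subunits of the exchange factor eEF1B, 2 rose. EEF1D, the delta subunit, read 233, 255 and 245 CPM in soft and 309, 374 and 303 in stiff gels. The groups did not overlap, with stiff replicate 2 the highest, and the log2 fold change was 0.43 ± 0.09 (edgeR adjusted p = 0.00281). EEF1G, the gamma subunit that anchors the complex, read 401, 431 and 450.3 CPM in soft and 531, 623 and 512 in stiff gels, again without overlap (log2 fold change 0.38 ± 0.09, edgeR adjusted p = 0.00490). EEF1B2, the beta subunit, was at 0.18 and not called, and at 0.03 without stiff replicate 2. The exons of EEF1G lie almost wholly (99.9%) within another annotated gene on the same strand, and 31.2% of those of EEF1D face one on the other strand; counts of these partners are not analysed here, and reads of each pair cannot be told apart.

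The enzymes that methylate the elongation factors held the largest falls. EEF2KMT, which methylates a lysine of eEF2, read 17.7, 20.4 and 19.4 CPM in soft and 9.89, 11.9 and 11.3 in stiff gels. The log2 fold change was -0.80 ± 0.10 (1.74-fold lower, edgeR adjusted p = 1.54e-04). EEF1AKMT4, a lysine methyltransferase of eEF1A, read 9.58, 9.53 and 10.6 CPM in soft and 4.87, 6.25 and 5.71 in stiff gels, a log2 fold change of -0.81 ± 0.12 (1.76-fold lower, edgeR adjusted p = 4.34e-04). Neither gene's groups overlapped, and both falls were called under all 20 alternatives. EEF1AKNMT, which methylates the N-terminus and a lysine of eEF1A, fell from 38.6 ± 0.684 to 29.5 ± 1.19 CPM, a log2 fold change of -0.39 ± 0.07 (edgeR adjusted p = 0.00148). EEF1AKMT2 rose, with 13.2, 13.6 and 13.3 CPM in soft and 16.5, 17.1 and 19.3 in stiff gels (log2 fold change 0.40 ± 0.09, edgeR adjusted p = 0.00514), a call lost on log2 TPM at adjusted p up to 0.0854. EEF1AKMT1 and EEF1AKMT3 were both at -0.01 and not called. Overlaps limit this group: ALG1 on the other strand, sharing 29.3% of the exon bases of EEF2KMT, had 141.6% of its count, and the readthrough gene EEF1AKMT4-ECE2, sharing 26.3%, had 54.2% of that of EEF1AKMT4.

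A pair of genes that share the family names but not the role in initiation were not called. EIF4A3, a helicase of the exon junction complex, read 179.9, 197 and 192 CPM in soft and 170.1, 186 and 174 in stiff gels, with overlap. EIF1AD, a nuclear protein with an eIF1A domain, was at 44.0 ± 1.81 and 41.1 ± 3.11 CPM.

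For factors with several genes, each gene's share of its family was computed from counts per kilobase and compared by a two-sided exact permutation test over the 6 libraries, which cannot go below p = 0.1; 13 shares were compared, and the smallest adjusted p was 0.186. EIF4A2 made up 52.1%, 52.1% and 54.2% of EIF4A1 and EIF4A2 together in soft and 67.7%, 67.0% and 66.2% in stiff gels (52.8 ± 1.22% against 66.9 ± 0.755%, exact p = 0.1). The gap between the groups was many times the spread within either. Its size is uncertain, because reads of EIF4A1 and SENP3-EIF4A1 cannot be told apart. EIF1B went from 7.61 ± 0.266% to 9.79 ± 0.799% of the eIF1 pair, and EIF5A2 from 1.14 ± 0.160% to 2.56 ± 0.187% of EIF5A and EIF5A2, both without overlap and at the smallest exact p of 0.1. EIF5AL1, which may hold reads of EIF5A, was left out of that pair. In the eIF4G family EIF4G1 went from 27.7 ± 0.661% to 31.6 ± 0.925% and EIF4G2 from 65.8 ± 0.813% to 62.5 ± 0.545%, without overlap (exact p = 0.1), whereas EIF4G3 overlapped (6.53% and 5.93%, exact p = 0.2).

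In the eIF4E family EIF4E3 went from 13.9 ± 1.42% to 16.9 ± 0.821% and EIF4E from 5.94 ± 0.201% to 4.69 ± 0.277% (both exact p = 0.1). The share of EIF4E2 was 80.2 ± 1.23% in soft and 78.5 ± 0.545% in stiff gels with overlap (exact p = 0.2), but with the deposited TPM it was 65.2 ± 0.421% and 66.9 ± 0.208%, the other direction, so no direction is given for it. EEF1A2 was 0.070 ± 0.012% and 0.076 ± 0.022% of eEF1A (exact p = 0.8). The 3 4E-BP shares overlapped between groups, with EIF4EBP1 at 71.7 ± 1.13% and 71.5 ± 2.67%. The size of a share depends on the transcript length assumed: EIF5A2 was 15.5% and 29.4% of its pair in TPM and 4.10% and 8.86% in plain counts, and EIF4E, whose longest coding transcript has 11523 bases, was 25.3% and 20.9% of its family in TPM.

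**Figure D4:**
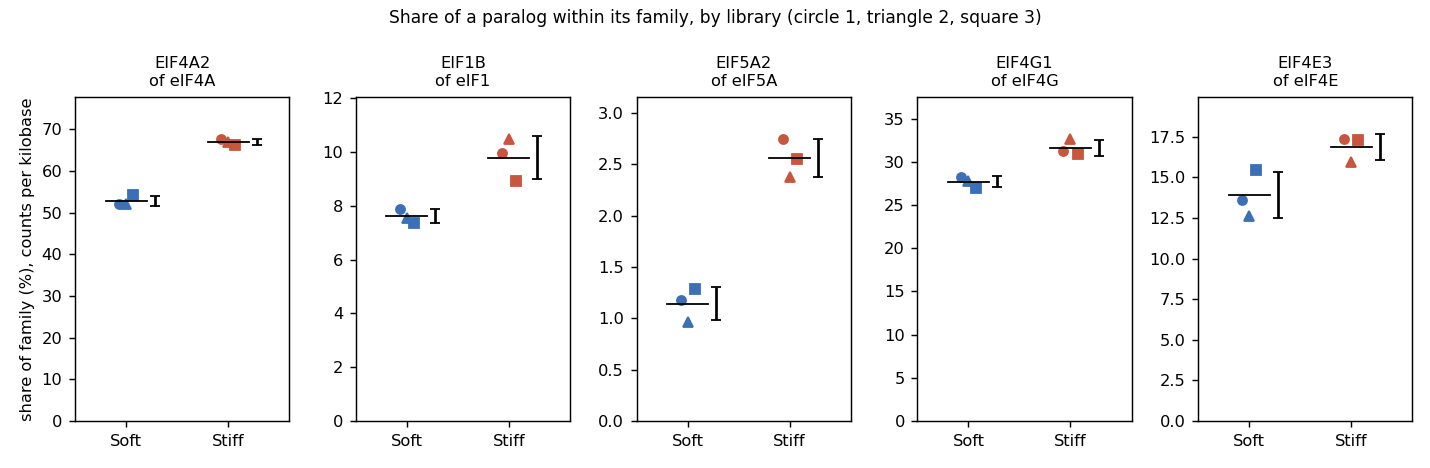
Share in percent of 5 genes within their families, from counts per kilobase, for each soft (blue) and stiff (red) library, with the group mean as a line and 1 SD as a bar; each panel has its own axis from 0. The panels show the 5 of 13 compared shares that were higher in stiff gels without overlap, so that pattern follows from their choice. Shares that fell without overlap (EIF4G2 and EIF4E) and those that overlapped are not shown. The gap is widest for EIF4A2, from 52.8% to 66.9%.

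As a whole the machinery took a similar share of the RNA in both gels. The members' summed TPM was 15298 ± 186 in soft and 15578 ± 166 in stiff gels (exact permutation test, p = 0.2), and their share of counted fragments was 1.56 ± 0.029% and 1.53 ± 0.035% (exact p = 0.3), so the sign of this small difference depends on the unit. Within the sum, the eIF4A group was at 2277 ± 61.9 TPM in soft and 2805 ± 23.9 in stiff gels and the eIF4G group at 424 ± 25.3 and 293 ± 46.7, each without overlap (exact p = 0.1 for both). Most of the groups' sums did not overlap, among them eEF1B (1374 ± 46.0 and 1634 ± 85.5) and the 4E-BP group (583 ± 23.6 and 475 ± 41.8). Single genes did so in 59.9% of all tested on CPM, so a lack of overlap is not particular to the groups named. The summed TPM of eIF3 was 2453 ± 10.3 in soft and 2324 ± 14.4 in stiff gels, also without overlap. That sum counts both EIF3C (86.4 and 53.2 TPM) and EIF3CL (110 and 67.6 TPM), which may hold the same reads. No sum per kilobase was made, so no direction is given for eIF3 as a whole. The deposited TPM rest on lengths that follow the number of annotated transcripts: over 5930 well-counted genes, the log2 length implied by count and TPM correlated at 0.82 with the log2 number of RefSeq transcripts and at 0.65 with the log2 transcript length, a description across genes. The correlation with the log2 of transcript length times number of transcripts was 0.93. Levels of single members and shares of paralogs were therefore compared per kilobase. TPM was kept for the sums, the marker levels, the fits of log2 TPM and the alternative shares, which carry these lengths. It also picked the member of each complex shown in every library.

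The other genes of the pathway, 57 in 8 lists with 56 tested, leaned to lower values in stiff gels, with 5 higher and 27 lower beside 25.3% and 23.8% of all genes. All 4 eIF2 kinases were lower: EIF2AK2, the kinase that senses double-stranded RNA, at a log2 fold change of -0.61 ± 0.10 (SE), EIF2AK3, the kinase of the endoplasmic reticulum, at -0.46 ± 0.09, EIF2AK4, which senses uncharged tRNA, at -0.23 ± 0.08, and EIF2AK1, the heme-regulated kinase, at -0.23 ± 0.08. Over the called genes named from these lists, edgeR adjusted p ran from 9.28e-06 for SESN2 to 0.0450 for EIF2AK4 and ETF1. PPP1R15A, the inducible subunit of the phosphatase that reverses them, was at -0.51. The calls of EIF2AK1 and EIF2AK4 were lost when any soft library was left out and were kept in 16 and 11 of 20 alternatives. EIF2AK4 also lost its call on log2 TPM, without stiff replicate 1 and with the length trend removed. Among 16 inputs through mTORC1 and the MNK kinases 2 were higher and 8 lower. MTOR, the kinase itself, fell from 102 ± 8.52 to 53.9 ± 13.5 CPM (log2 fold change -0.92 ± 0.16), and SESN2, a leucine-responsive inhibitor of mTORC1, fell from 38.7 ± 2.29 to 17.7 ± 1.84 (-1.13 ± 0.10). DDIT4, a stress-induced inhibitor of mTORC1, rose from 687 ± 33.2 to 1011 ± 80.3 (0.56), and MLST8, an mTOR partner, was the other that rose (0.40).

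Termination and recycling factors were lower in 4 of 5 tested, ABCE1, which splits the ribosome after termination, at -0.61, GSPT1 at -0.30, HBS1L at -0.20 and ETF1, the release factor, at -0.17. Of 9 enzymes that make hypusine on eIF5A and diphthamide on eEF2, DHPS, the first hypusine enzyme, rose (0.50), while DPH1, DPH2, DPH3 and DPH6 of the diphthamide pathway fell, DPH2 the most at -0.65. Among scanning and re-initiation factors DHX29 and DDX3X, both helicases, fell (-0.55 and -0.37) and MCTS1 rose (0.27, with the call lost in 10 of 20 alternatives). Of 9 mitochondrial translation factors GFM1 and MRRF fell (-0.64 and -0.41) and GFM2 rose (0.25). PAIP1 was the 1 of 5 poly(A)-binding proteins and partners called (-0.29), and SECISBP2 the 1 of 2 selenocysteine factors (-0.38). MLST8, ETF1, DPH3 and DPH6 were named after their values were seen, to complete these counts. The calls of HBS1L, ETF1 and GFM2 were kept in 12, 13 and 16 of 20 alternatives, at adjusted p up to 0.603, 0.159 and 0.282, and DPH3 was lost when any of 5 libraries was left out. With the trend on transcript length removed, GSPT1 was at -0.14 and HBS1L at -0.05, both not called (edgeR adjusted p = 0.147 and 0.603). MRRF was then at -0.24 and still called (edgeR adjusted p = 0.0332). DDX3X lost its call in the unfiltered fit of log2 TPM, whereas ABCE1 was called in all 20. Without stiff replicate 2 the lists had 6 higher and 34 lower.

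Leaving out stiff replicate 2, which stands apart from its group, raised the number of called members rather than lowering it. All 32 called members kept their call and direction, and 11 more passed, giving 20 higher and 23 lower of 63. Among all 19053 genes then tested, 28.2% were higher, 27.4% lower and 55.7% called. The 11 added members were EIF2S3B, EIF2D and EIF3L, which were higher, and EIF1AX, EIF1AD, EIF3G, EIF4A3, EIF4EBP1, EIF4EBP3, EIF4G1 and EIF5B, which were lower. The deviation of that library from the other stiff libraries correlated with the log2 transcript length at r = -0.43 across the 63 members, so it read higher for short and lower for long transcripts; this is a description across genes that share 1 library. Over the members themselves the fold change had almost no relation to length (r = -0.04, n = 63), and the median longest transcript was 2387 bases for the higher, 3085 for the lower and 2679 for the uncalled members.

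**Figure D5:**
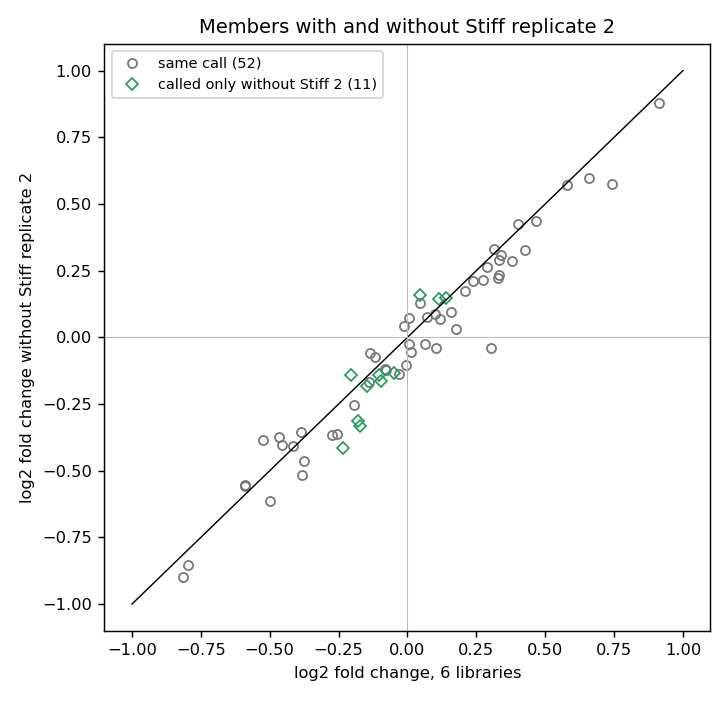
Log2 fold change of each of the 63 tested members with all 6 libraries (horizontal) and without stiff replicate 2 (vertical), with the line of equality; green diamonds mark the 11 members called only without that library. The called members keep their sign, and most points far from 0 lie close to the line.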

How the data were processed

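Polyadenylated RNA of 6 libraries was sequenced as paired reads from directional libraries, per the labels' protocols. The submitters' processing notes name STAR 2.6.1e and featureCounts 1.6.2 with the hg38 build, and also FastQC 0.11.7, cutadapt 1.9.1 and Trim Galore 0.4.2. Strand setting, annotation and handling of multi-mapped reads were not given in the sources used here. Whole, unnormalized counts of fragments per gene were deposited by the authors, as were TPM values in 1 table per library, which divide those counts by a gene length. Libraries were grouped by their labels.

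The members, gene lists, sequence features and tests were chosen with earlier results of these data known. Stiff was compared with soft on the deposited counts with edgeR 4.0.16 in R 4.3.3 (quasi-likelihood F test, TMM scaling, the default filter on low counts and no covariate), with Benjamini-Hochberg adjustment over all tested genes and a threshold of 0.05. The standard error is the size of the log2 fold change divided by the square root of F. Values in each library are given for the called member with the smallest p in each direction within a complex, for called members of at least 1.5-fold and for the member with the highest TPM of a complex; other members are given by their fold change. From each list of other pathway genes up to 3 called genes with the smallest p are named, with the eIF2 kinases, MTOR, PDCD4 and DDIT4. Shares between paralogs use counts per kilobase of the longest coding transcript in GENCODE release 29, in place of the planned TPM, because the lengths behind the deposited TPM follow the number of transcripts. A leukocyte marker is not reported here. Single values were compared by exact permutation over libraries. The edgeR fit was tested on simulated counts with 50 genes changed at each fold. It recovered 14% of 1.25-fold and 90% of 1.5-fold changes, and 6.7% of its calls were false. Far fewer genes changed there than were called in these data, so the rates need not carry over. A member that was not called may still differ by a small amount. TALAM1, antisense to MALAT1, had 92.7% to 94.3% of its count in each library although the kit marks strand, so overlapping genes on either strand were treated as not told apart, from 10% of exon bases.

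Alternatives were DESeq2 1.42.0, other scalings and filters, a robust fit, limma 3.58.1 on log2(TPM + 1) and log2(TPM + 0.1) with a mean TPM of at least 1 or no filter, a block for the replicate number, and leaving out each library in turn. Added after seeing the data were the removal of each library's trend on transcript length (lowess, span 0.3), the summing of near-identical copies, the counts per kilobase and the leave-outs of shares. No pair of libraries of a condition was alike within sampling noise, with chi-square values per degree of freedom from 3.39 to 33.4.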

Additional observations from a re-analysis of the deposited data

How the results depend on the processing

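The count of higher members was 11 to 20 and of lower members 13 to 21 over the alternatives that keep all libraries, against 17 and 15. Higher members fell to 11 in the limma fit of log2(TPM + 1) that had no filter. On log2 TPM (each of the 3 limma fits) the members' median log2 fold change was -0.11, that of all genes -0.04 to -0.11, and the counts became 0 higher for the methyltransferases, 0 higher and 2 lower for eIF2, 0 higher for eIF2B, 1 higher for the eIF4E proteins and 1 lower for eIF4G; with a filter, 2 of the 4E-BP group were lower. Upper quartile scaling left 0 lower in the eIF4A group. Scaling by library size alone left 0 higher in eIF2 and 0 in eIF2B, and dropping the count filter left 0 in eIF2B. With the length trend removed, 2 of the 4E-BP group were lower (also with the replicate block) and 1 of eIF5A; with near-identical copies summed, 1 of eIF5A was lower. The cause of these changes was not tested, except that summing copies removes rows. The stiff minus soft share of EIF4E2 was -1.71 percentage points and 1.76 in TPM, and that of the summed members was 279.5 TPM but -0.03 percentage points of counted fragments.

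The replicate numbers gave no clear pairing: deviations of same-numbered soft and stiff libraries correlated at 0.07, 0.22 and 0.05, and not every library correlated best with its own number. So few libraries cannot show that pairing was absent. With the replicate block 17 members were higher and 16 lower, EIF4G1 being added. Among all tested genes 10206 were called with the block and 9171 without it.

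With 1 library left out at a time, 12 to 20 members were higher and 11 to 23 lower, the largest numbers without stiff replicate 2. By group, the ranges were 0 to 2 lower in the 4E-BP group, 0 to 2 higher and 0 to 1 lower in eIF2, 0 to 1 higher in eIF2B, 2 to 5 higher in eIF3, 0 to 1 lower in the eIF4A group and 0 to 2 lower in eIF5A. The difference in share ranged from -0.00671 to 0.0134 percentage points for EEF1A2, from -1.68 to 0.748 for EIF4EBP1 and from -0.266 to 2.70 for EIF4EBP2, so these have no stable sign. Depth limits the lowest members, such as EEF1A2 at 0.707 CPM in soft gels.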
